A study of Mus musculus with 12 samples.

Results

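Collagens, laminins and the proteins of elastic fibres make up most of the fibrous and sheet-like matrix around the retinal pigment epithelium (RPE), and 59 of their genes were followed here in RPE samples from mouse eyes. The genes were taken by name from a table of 13942 genes: every collagen chain, every laminin chain, and 14 genes for nidogens, perlecan (Hspg2), agrin, elastin, the cross-linking enzymes Lox and Loxl1, fibrillins and fibulins. The 7 collagen genes that mark cartilage (types II, IX, X and XI) were left out by that rule. The set holds 34 collagen genes, 11 laminin genes and these 14 others. The rule reads gene names and no measured value.

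The study followed RPE from mice of the C57BL/6J strain, either wild type (WT) or carrying a conditional knockout of the transcription factor gene Sox9 (labelled Sox9.cKO, with the letters kd in the sample titles). Polyadenylated RNA was sequenced from embryos (E15.5, counted in embryonic days) and from pups (P5, in postnatal days). Both ages and both genotypes had 3 libraries, which makes 4 groups. The sources used here do not give the promoter that drives Cre, the deleted exons, how RPE was separated from its neighbours, or whether the libraries of a group came from separate animals. P-values therefore measure only the spread between these samples, which may be technical. Each value is a read count that the authors put on 1 common distribution across the 12 libraries (quantile normalisation), with everything under 50 raised to 50, the floor. The sequencing depth is unknown, so no counting error can be attached to any value.

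Sox9 itself did not check the genotype labels. Its values were 1156, 1060.3 and 932 in the WT libraries at E15.5 and 1034, 990 and 1006 in those labelled cKO. At P5 they were 964, 1499.5 and 1111 in WT and 2136, 2384 and 2928 in the libraries labelled cKO, so the gene as counted was higher there, by 1.07 ± 0.17 (SE) on the log2 scale with an adjusted p = 0.032. This goes against a loss of Sox9 RNA, and a count over the whole gene can include exons that were not deleted. Every genotype difference below is therefore a difference between libraries by their labels. Rpe65 and Rgr, genes of the visual cycle in RPE, did differ with the label at P5. Rpe65 was 564, 479 and 178 in WT and at the floor of 50 in all 3 libraries labelled cKO. Rgr was 10706, 14597 and 6784 in WT against 93.2, 199 and 204. Of the 11 RPE markers tested, 2 were lower in the P5 cKO libraries at an adjusted p under 0.05, and 9 did not pass. Over the 11 the log2 difference was positive for 6 and negative for 5, with a median of 0.05.

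Matrix genes of this kind serve the RPE on its outer face. The RPE rests on Bruch's membrane, which is built as a basement membrane of the epithelium, a collagen layer, an elastic layer, a further collagen layer and the basement membrane of the choroidal capillaries. Basement membranes are sheets of laminin trimers and a collagen IV network joined by nidogen and perlecan. Fibrillar collagens give tensile strength, and elastin is laid down on fibrillin microfibrils with the help of fibulins and then cross-linked by lysyl oxidases. Much of this matrix is made by neighbouring mesenchyme and endothelium as well as by the epithelium.

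Markers of other tissues were present in every library beside those of RPE. Of 12 RPE markers 11 were in the table, and their summed value per library was 23877 to 42698 at E15.5 and 76415 to 144313 at P5, with Rpe65, Rgr and Kcnj13 at the floor in every E15.5 library. The 13 mesenchyme markers summed to 40170 to 49880 at E15.5 and 23832 to 54270 at P5, and none of them was at the floor in a whole group. The 10 endothelial markers summed to 7999 to 9646 at E15.5 and 13383 to 35433 at P5. The 13 photoreceptor markers stayed at 650 to 682 at E15.5, where 10 of them in WT and 11 in cKO were at the floor in all 3 libraries. At P5 they were 3446, 10764 and 111354 in WT and 3479.7, 55556 and 25357 in cKO, so replicate 3 of WT and replicate 2 of cKO stood apart. Lens markers, 11 of 14 in the table, summed to 2479, 6105 and 631 in WT and 8177, 5266 and 10287 in cKO at P5. In such bulk samples, fewer cells of a type and less RNA per cell cannot be told apart.

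Matrix genes were among the most abundant RNAs of every library. The 59 genes took up 4.09% to 6.15% of the summed values in the E15.5 libraries and 3.44% to 7.52% in the P5 libraries. Col1a1, which with Col1a2 encodes the chains of collagen I, ranked first of all genes in 9 of the 12 libraries. In those 9 libraries it holds the same value, 274806, because quantile normalisation gives the top gene of every library that value, and any difference between them cannot be seen. In the other 3 libraries its rank was 3 (E15.5 WT replicate 3 and P5 cKO replicate 3) or 4 (P5 cKO replicate 2). Col1a2 ranked between 2 and 9 and Col3a1, the chain of collagen III, between 6 and 17.

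To compare levels between genes, the values were divided by the exon length of each gene in kilobases. This length merges the exons of all annotated transcripts of a gene, 6563 bases for Col1a1 and 12426 for Col1a2. The order between genes thus depends in part on the annotation. Col1a1 led at E15.5 in WT at 36535 ± 9245 per kb (SD, n = 3), followed by Col1a2 at 8605 ± 2442 and Col3a1 at 7003 ± 861, and Col1a2 and Col3a1 lay within their spread. Col5a1 at 2875 ± 553, Col6a1 at 2827 ± 714 and Eln, the elastin gene, at 2445 ± 311 came next and also lay within their spread. At P5 in WT the order below collagens I and III was Eln at 2968 ± 624, Col6a1 at 2789.8 ± 670.4, Col4a1 at 2749 ± 1233, Col4a2 at 1971 ± 685, Loxl1 at 1844 ± 655 and Col8a1 at 1785 ± 874. Neighbours in this order lay within the larger of their SDs. The lowest at E15.5 in WT were Col28a1 at 10.2 ± 0 per kb and Lamc3 at 8.99 ± 1.35, and at P5 Col25a1 at 5.99 ± 1.07 and Col7a1 at 5.68 ± 1.41, all at or near the floor. In collagen IV at E15.5 in WT the ubiquitous Col4a1 and Col4a2 stood at 1441 ± 215 and 1029 ± 167 per kb, and Col4a5, Col4a4, Col4a3 and Col4a6 at 130.5 ± 27.3, 54.7 ± 14.9, 43 ± 16.9 and 36.5 ± 4.92. Among laminin chains the highest of each kind per kb in WT at E15.5 were Lama5 at 171 ± 42.1, Lamb1 at 472 ± 74.4 and Lamc1 at 560.3 ± 88.7, so the highest alpha chain stood below the highest beta and gamma chains. At P5 in WT Lamb2 at 648 ± 162 stood above Lamb1 at 438 ± 198, by more than the SD of either. Lama4 at 177 ± 79.3 and Lama5 at 151 ± 58.3 lay within their spread.

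**Figure D1:**
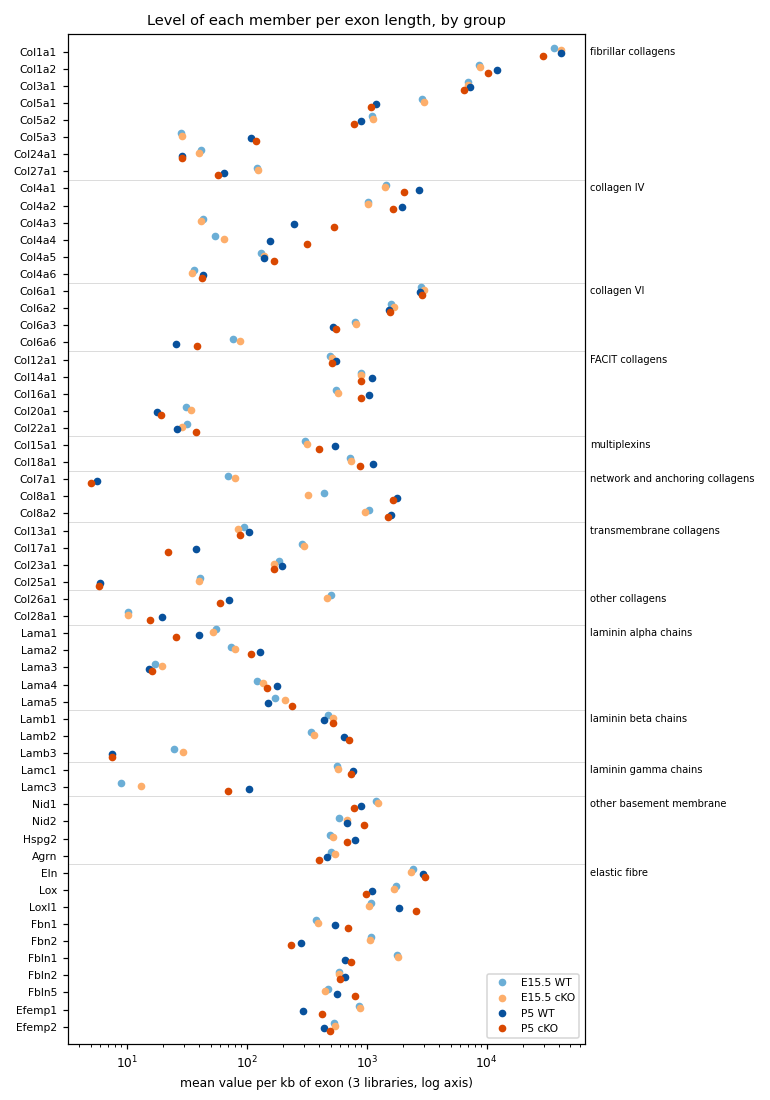
Mean normalised value per kb of exon (log axis) for 58 of the 59 genes, grouped by role, with 1 point for each of the 4 groups (3 libraries each). Collagen I and III chains lie farthest right, with Col1a1 at 36535 per kb in WT at E15.5, and most genes keep their place between groups, whereas Col7a1, Col25a1, Lamc3 and Col4a3 shift along the axis with age.

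The matrix genes varied between libraries of 1 group more than genes in general, and they did so together. At P5 the median SD of the log2 values was 0.584 over the 59 genes in WT and 0.486 in cKO, beside 0.317 and 0.232 over all 13523 genes tested. At E15.5 the medians were 0.236 and 0.187, beside 0.105 and 0.116. In P5 WT, replicate 1 was the highest of the 3 libraries for 48 of the 59 genes (81.4%, against 32.8% of all genes) and replicate 3 the lowest for 52 (88.1%, against 42.6%). In P5 cKO, replicate 1 was the highest for 48 (81.4%, against 41.1%) and replicate 2 the lowest for 39 (66.1%, against 36.6%). Replicate 3 of E15.5 WT was likewise the lowest for 51 (86.4%, against 31.7%). The mesenchyme markers of the P5 libraries followed the same order, 48048, 33215 and 23832 in WT and 54269.8, 26782 and 27114 in cKO except for replicates 2 and 3 of cKO, which were close. The photoreceptor markers ran the other way at P5, lowest in replicate 1 and highest in replicate 3 of WT and replicate 2 of cKO. The part of either tissue in the spread was not tested.

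From E15.5 to P5 the matrix genes split between rises and falls. In WT 8 of the 59 genes rose and 12 fell at an adjusted p under 0.05, beside 15% and 23.2% of all genes tested (38.2% in either direction), and in cKO again 8 rose and 12 fell, beside 17.6% and 26.1% (43.7% in either direction). Their shares, 13.6% and 20.3%, thus lay at or somewhat below that background in both genotypes. Of the genes that rose in WT 7 also rose in cKO (87.5% of either list), of those that fell 10 (83.33% of either list), and no gene called in both changed in opposite directions. The P5 libraries lay above all E15.5 libraries for 10 of the 59 genes in WT and below them for 15, beside 19.3% and 29.4% of all genes. The median log2 change over the 59 genes was 0.00 in WT and -0.01 in cKO, beside -0.07 and -0.08 over all genes. The number of genes that rose in WT was 5 without replicate 3 of E15.5 WT, 5 when the 6 WT libraries were fitted alone, and 16 without replicate 3 of P5 WT, the library with the most photoreceptor RNA. The number that fell in cKO was 20 without replicate 1 of P5 cKO. With the photoreceptor markers as a covariate 31 genes rose and 7 fell in WT and 30 and 9 in cKO. With the lens markers as a covariate 2 rose and 14 fell in cKO.

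**Figure D2:**
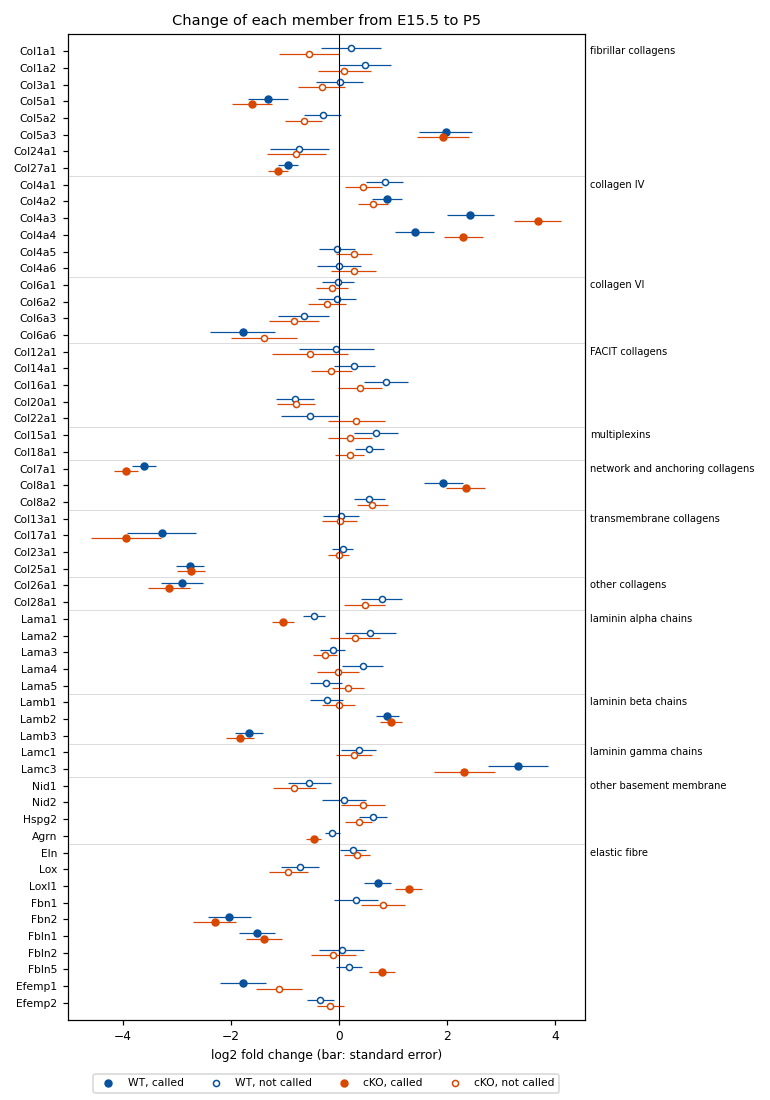
Log2 fold change from E15.5 to P5 (points) with its standard error (bars) for 58 of the 59 genes, in WT (blue) and cKO (orange). Filled points passed the test, 19 in each genotype, and lie on the same side of 0 in both genotypes for every gene. They run from Col7a1 at -3.94 to Col4a3 at 3.69, both in cKO.

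Collagen IV, the network of all basement membranes, was the role group with the most rises in WT. There 3 of its 6 genes rose (50%, beside 15% of all genes tested) and none fell (beside 23.2%). In cKO 2 rose (33.3%, beside 17.6%), as many as among the elastic fibre genes. Col4a3 and Col4a4 encode chains of the network that replaces the embryonic one in mature kidney, lung and eye basement membranes. They lie head to head on chromosome 1 of GRCm38, Col4a4 at 82448423 to 82586849 on the minus strand and Col4a3 at 82586921 to 82722059 on the plus strand, with 71 bases between their starts. These 71 bases are shown because both genes rose in both genotypes and this is all the sequence between their start sites. They are written 5′ to 3′ on the strand of Col4a4 (chr1:82586850-82586920, RefSeq, GRCm38.p6), all in lower case since none of the motifs searched below lies in them.
Col4a4 to Col4a3 interval: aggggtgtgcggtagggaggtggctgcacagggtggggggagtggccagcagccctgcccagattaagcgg

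Col4a3 was 593, 435 and 258 in WT and 559, 388 and 302 in cKO at E15.5. At P5 it was 2824, 3443 and 1097 in WT and 4203, 4994 and 6722 in cKO. All P5 libraries lay above all E15.5 libraries, with replicate 3 the lowest in WT and the highest in cKO. The log2 change was 2.44 ± 0.43 (SE, adjusted p = 0.0015) in WT and 3.69 ± 0.43 (adjusted p = 0.00012) in cKO. An exon of an antisense transcript, C430014B12Rik, overlaps Col4a3 over 563 bases, and the sources used here do not say whether the counting used strand, so reads of the pair cannot be told apart.

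Col4a4 moved with its neighbour at a smaller size. Its values were 740.5, 578 and 424 in WT and 783, 658 and 595 in cKO at E15.5, and 1819.5, 2406 and 771 in WT and 2959.9, 3067 and 4106 in cKO at P5. The ages did not overlap in either genotype, though the lowest P5 WT library was only just above the highest at E15.5. Col4a4 rose by 1.40 ± 0.36 (SE, adjusted p = 0.011) in WT, a call that was lost without replicate 3 of E15.5 WT (adjusted p = 0.052), and by 2.31 ± 0.36 (adjusted p = 0.00062) in cKO. The rises in cKO were 2.20 ± 0.40 for Col4a3 and 0.95 ± 0.23 for Col4a4 with the lens markers as a covariate, which themselves were called higher with age for 9 of 11 genes in cKO and none in WT.

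The other 2 pairs behaved differently. Col4a1 and Col4a2, the chains found in every basement membrane, have start sites on chromosome 8 whose first exons share 22 bases. Col4a2 was 7825, 6973 and 5637 at E15.5 and 17593, 13010.5 and 8529 at P5 in WT and rose by 0.89 ± 0.28 (adjusted p = 0.029). That call was lost without any one of E15.5 WT replicates 2 and 3 and P5 WT replicates 1 and 2 (highest adjusted p = 0.11). It was also lost when the 6 WT libraries were fitted alone (adjusted p = 0.068). Col4a1 had a log2 change of 0.85 ± 0.34 in WT (adjusted p = 0.072), and in cKO neither passed. Col4a2 in cKO had 0.64 ± 0.28 (adjusted p = 0.09). It did pass there without P5 WT replicate 3 (adjusted p = 0.038) and with the photoreceptor covariate (1.56 ± 0.21, adjusted p = 0.00012). Col4a5 and Col4a6, 1308 bases apart on chromosome X, had log2 changes of -0.02 ± 0.33 and 0.00 ± 0.41 in WT and of 0.28 ± 0.33 and 0.28 ± 0.41 in cKO, and neither passed. Endothelial markers, whose cells make much collagen IV, were called higher with age for 10 of 10 genes in WT and 7 of 10 in cKO, with sums of 35433, 30030.5 and 18063 in the P5 WT libraries against 8576 to 9641 at E15.5. Their part in these rises was not tested.

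The network-forming and anchoring collagens held both the largest fall and one of the clearest rises. Col8a1, a short-chain collagen of the hexagonal lattice of Descemet's membrane and of vessel walls, was 4591, 3459 and 2319.8 in WT and 2781, 2626 and 2217 in cKO at E15.5. At P5 it stood at 20743, 14159.8 and 7053 in WT and 14159.8, 10447 and 14597 in cKO. The ages did not overlap, and it rose by 1.94 ± 0.36 (SE, adjusted p = 0.0019) in WT and 2.35 ± 0.36 (adjusted p = 0.00053) in cKO, where the call was lost with the lens markers as a covariate (1.39 ± 0.45, adjusted p = 0.051). Its partner chain Col8a2 had log2 changes of 0.57 ± 0.29 and 0.62 ± 0.29 and did not pass in either genotype.

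Col7a1 encodes the chain of the anchoring fibrils that tie the basement membrane of stratified epithelium to its stroma. It was 886, 756 and 526 in WT and 844, 682 and 920.3 in cKO at E15.5. At P5 it was 50, 75.2 and 50 in WT and 50, 55.1 and 50 in cKO, that is at the floor in 4 of 6 libraries. The change was -3.60 ± 0.22 (SE, adjusted p = 3.4e-06) in WT and -3.94 ± 0.22 (adjusted p = 2.4e-06) in cKO, and the floor limits how large a fall these values can show.

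Transmembrane collagens showed 2 falls (50%) and no rise among 4 genes in each genotype. Of all genes tested 23.2% fell in WT and 26.1% in cKO, and a group of 4 genes is small for such a comparison. Col17a1, the collagen of hemidesmosomes that fastens epithelial cells to their basement membrane, was 2078, 1962 and 1174 in WT and 1919, 1657 and 1777 in cKO at E15.5 and 58, 228 and 389 in WT and 50, 186 and 163 in cKO at P5. It fell in both, with a log2 change of -3.28 ± 0.64 (SE, adjusted p = 0.0027) in WT and -3.94 ± 0.64 (adjusted p = 0.0008) in cKO. Unlike most of the genes, it was highest at P5 in WT replicate 3 and cKO replicate 2, the libraries with the most photoreceptor RNA. Col25a1, a transmembrane collagen known from motor neurons and muscle, was 511, 482 and 585 in WT and 452, 397 and 686 in cKO at E15.5 and 86.3, 84.8 and 61.6 in WT and 101, 72.2 and 56 in cKO at P5. No P5 library came near the E15.5 range, and the change was -2.76 ± 0.26 (adjusted p = 3.4e-05) in WT and -2.73 ± 0.26 (adjusted p = 3.4e-05) in cKO. Skeletal muscle markers summed to 45552, 80659 and 43093 in WT at E15.5 and 60226, 19061 and 12891 at P5. In cKO they were 56915, 69779 and 43364 at E15.5 and 65098, 54303 and 24941 at P5, and the ages overlapped in both genotypes. Of the 10 markers 5 fell in each genotype, and their part in the fall of Col25a1 was not tested. Col13a1, a collagen of the neuromuscular junction, and Col23a1 did not pass, at 0.05 ± 0.33 and 0.07 ± 0.20 in WT.

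Lamb3 and Lama3 encode laminin chains of epithelial hemidesmosomes. Lamb3 was 168, 187 and 132 in WT and 151, 295 and 132 in cKO at E15.5 and at the floor of 50 in all 6 P5 libraries, so it was at least 3.25-fold lower at P5 in WT and at least 3.86-fold lower in cKO, each against the floor (adjusted p = 0.0007 and 0.00034). The alpha chain Lama3 was 204, 222 and 121 at E15.5 and 176, 169 and 146 at P5 in WT, overlapping, and its log2 change of -0.11 ± 0.22 did not pass.

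Most markers of surface ectoderm fell alongside Col7a1, Col17a1 and Lamb3. The transcription factor gene Trp63 went from 408.6 to 703.4 over the E15.5 libraries to the floor in all 6 P5 libraries. The keratin gene Krt5 was 5459, 5718 and 3268 in WT at E15.5 and 50, 1093 and 50 at P5, and 5848, 5057 and 4106 at E15.5 and 50, 50 and 566 at P5 in cKO. Of the 8 markers in that list 5 fell in each genotype (Krt5, Krt15, Krt14, Krt12 and Trp63), while Krt8 and Krt18 rose in both and Perp in cKO, and the summed list was 10129 to 17800 at E15.5 and 4216 to 23158 at P5. The part of this tissue in the falls was not tested.

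The sequences before 3 of these start sites are given next. Each is the 200 bases before the RefSeq start (GRCm38.p6), 5′ to 3′ on the gene's own strand, with capitals for the GC box (GGGCGG or its reverse CCGCCC), and they show the called rise and the fall among network and anchoring collagens and a laminin chain at the floor in every P5 library. They are Col8a1 at chr16:57754738-57754937 (minus strand), Col7a1 at chr9:108953386-108953585 (plus strand) and Lamb3 at chr1:193301794-193301993 (plus strand), whose GENCODE gene model begins further upstream, at 193207699.
Col8a1: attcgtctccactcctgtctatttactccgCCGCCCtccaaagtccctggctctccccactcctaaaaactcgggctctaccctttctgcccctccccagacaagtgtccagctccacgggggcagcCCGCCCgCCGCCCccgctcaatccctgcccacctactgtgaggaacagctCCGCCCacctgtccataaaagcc
Col7a1: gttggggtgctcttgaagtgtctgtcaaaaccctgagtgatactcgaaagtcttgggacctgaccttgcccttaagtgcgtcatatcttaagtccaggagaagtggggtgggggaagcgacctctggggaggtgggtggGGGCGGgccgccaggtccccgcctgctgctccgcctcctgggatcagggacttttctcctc
Lamb3: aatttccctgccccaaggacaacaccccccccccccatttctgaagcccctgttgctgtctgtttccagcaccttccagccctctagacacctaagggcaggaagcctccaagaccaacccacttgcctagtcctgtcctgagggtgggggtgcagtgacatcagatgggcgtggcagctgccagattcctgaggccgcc

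Col8a1, which rose, has 4 GC boxes in this stretch, Col7a1, which fell, has 1, and Lamb3 none. Promoter windows were found for 41 of the 59 genes, in 49 windows, and a search covered the 250 bases before the start on both strands. The GC box was in 63.3% of the windows of these genes, beside 32.7% of all 32851 windows. The CCAAT box (CCAAT) was in 26.5% beside 33.8%, TATAAA in 6.12% beside 12.4%, the AP-1 motif TGANTCA in 4.08% beside 6.75%, the E-box CACGTG in 4.08% beside 6.02% and the letters AACAAT, a core that SOX proteins bind, in 4.08% beside 9.42%. A match is a description of letters and not of binding, and a missing match says only that these letters are absent from this window.

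Fibrillar collagens showed 1 rise (12.5%) and 2 falls (25%) among 8 genes in each genotype. These shares lay near those of all genes tested, 15% and 23.2% in WT and 17.6% and 26.1% in cKO. The most abundant fibrillar collagens did not pass. Col1a1, Col1a2 and Col3a1 had log2 changes of 0.23 ± 0.55, 0.48 ± 0.49 and 0.02 ± 0.43 in WT and -0.55 ± 0.55, 0.11 ± 0.49 and -0.31 ± 0.43 in cKO, the first limited by its tied top values. The 3 chains of collagen V, which sets the diameter of collagen I fibrils, went apart. Col5a1 was 28794, 24971 and 19463 at E15.5 and 13598, 9545 and 7077 at P5 in WT, without overlap, and 24109.8, 21548 and 30832 at E15.5 and 15573, 5545 and 6578 at P5 in cKO, also without overlap. It fell in both, with -1.31 ± 0.37 (adjusted p = 0.018) and -1.61 ± 0.37 (adjusted p = 0.0058), although the WT call was lost without E15.5 WT replicate 1 or 2 (adjusted p up to 0.066), and with the photoreceptor markers as a covariate it was -0.22 ± 0.31 in WT and -0.45 ± 0.32 in cKO, not passing. Exons of the antisense gene 2810430I11Rik share 99 bases with Col5a1, and their reads may be mixed.

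Col5a3 rose. It was 239.6, 252 and 86.3 in WT and 212, 224 and 154 in cKO at E15.5 and 1087, 732 and 407 in WT and 1280.2, 592 and 543 in cKO at P5, without overlap, a change of 1.98 ± 0.48 (adjusted p = 0.0088) in WT and 1.94 ± 0.48 (adjusted p = 0.0086) in cKO. The latter was 1.22 ± 0.76 and did not pass with the lens markers as a covariate. Col5a2 did not pass, at -0.30 ± 0.34 and -0.65 ± 0.34. Col27a1, a fibrillar collagen best known from skeletal growth plates, was close to constant among the E15.5 libraries at 1623, 1504 and 1657 in WT and 1607, 1549 and 1686 in cKO and was 973, 891 and 663 in WT and 969, 720.4 and 574 in cKO at P5. It fell in both, at -0.94 ± 0.19 (adjusted p = 0.0028) and -1.13 ± 0.19 (adjusted p = 0.00082), and the WT value was -0.43 ± 0.17 (adjusted p = 0.057) with the photoreceptor markers as a covariate. Col24a1 did not pass.

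Collagen VI forms beaded filaments beside cells, and its 3 main chains did not pass in either genotype, with Col6a1 at -0.01 ± 0.30, Col6a2 at -0.04 ± 0.35 and Col6a3 at -0.65 ± 0.47 in WT. The alternative chain Col6a6 was 768, 941 and 401 at E15.5 and 378, 248 and 75.1 at P5 in WT. It fell in WT at -1.78 ± 0.61 (adjusted p = 0.04) and had -1.38 ± 0.61 (adjusted p = 0.091) in cKO, where 777, 1058 and 589 at E15.5 and 627, 245 and 179 at P5 overlapped. The WT call held in 5 of the 12 fits that each left out 1 library. Without P5 WT replicate 3 the value was -1.11 (adjusted p = 0.1), and with the photoreceptor markers as a covariate it turned to 0.07 ± 0.49.

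None of the 5 FACIT collagens, which sit on the surface of fibrils, and neither of the 2 multiplexins, which join basement membranes to stroma, passed in either genotype. Their log2 changes in WT ran from -0.81 (Col20a1) to 0.87 (Col16a1), with Col18a1, the source of endostatin, at 0.56 ± 0.27 and Col15a1 at 0.68 ± 0.41. Col12a1, which in P5 cKO was 17593, 1890.1 and 4144, had the widest SE of all 59 genes, 0.70.

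Col26a1, a collagen with an EMI domain, was nearly the same in all E15.5 libraries, 4186, 4005 and 4131 in WT and 3487, 3912 and 3989 in cKO. At P5 it was 833, 562 and 348 in WT and 859, 269 and 344 in cKO. The ages lay far apart, and it fell at -2.91 ± 0.39 (SE, adjusted p = 0.0003) in WT and -3.14 ± 0.39 (adjusted p = 0.00016) in cKO. Of the 13 mesenchyme markers 8 also fell in each genotype, with Osr2 going from 3852, 3970.2 and 3759.5 to 218, 166 and 50 in WT and Pdgfra from 4272, 3652 and 3595 to 1698, 1149.5 and 848, whereas Pdgfrb rose in WT, from 2644, 2539 and 2632 to 8286, 4591 and 3150.5, and the remaining 4 markers in WT and 5 in cKO did not pass. Their part in the falls of Col26a1, Col5a1, Fbn2 and Fbln1 was not tested. Each of the 6 E15.5 libraries had Col28a1 at the floor, and it was 144, 92.4 and 50 in WT and 125, 50 and 55.3 in cKO at P5, and did not pass.

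Among the 11 laminin chains 2 rose in each genotype (18.2%, beside 15% of all genes tested in WT and 17.6% in cKO). Laminins did not move 1 way, since Lamb3 fell in both genotypes and Lama1 in cKO. Lamc3, the gamma chain of retinal and vascular laminins, was 64.3, 50 and 50 in WT and 50, 136 and 53 in cKO at E15.5, at the floor in 3 of 6 libraries. At P5 it was 1082, 498 and 313 in WT and 753, 211 and 298 in cKO. The groups did not overlap, and the change was 3.32 ± 0.56 (SE, adjusted p = 0.0011) in WT and 2.33 ± 0.56 (adjusted p = 0.0069) in cKO. The cKO call was lost with the lens markers as a covariate (1.86 ± 0.92) and with library weights (1.88 ± 0.76), and an antisense transcript, Gm13441, overlaps 382 bases of its exons.

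Lamb2, the beta chain of mature retinal and synaptic laminins, was 2234, 2174 and 1804 in WT and 2121, 2051 and 2418 in cKO at E15.5 and 4583, 4436 and 2807 in WT and 5500.5, 3582 and 3984 in cKO at P5. It rose without overlap, by 0.90 ± 0.21 (adjusted p = 0.0064) in WT and 0.97 ± 0.21 (adjusted p = 0.0038) in cKO, where it was 0.48 ± 0.28 and not passing with the lens covariate. Its embryonic counterpart Lamb1 and the common gamma chain Lamc1 did not pass, at -0.22 ± 0.31 and 0.37 ± 0.33 in WT.

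Lama1, the alpha chain of embryonic basement membranes, passed the test in cKO and not in WT. It was 503, 408 and 608 at E15.5 and 326, 222 and 199.5 at P5 in cKO, a change of -1.03 ± 0.20 (adjusted p = 0.0022), and 597, 532 and 476 at E15.5 and 407, 402 and 355 at P5 in WT, a change of -0.46 ± 0.20 (adjusted p = 0.095). Those 2 changes were not shown to differ, since their difference was -0.58 ± 0.28 with an adjusted p = 1. The cKO value was -0.64 ± 0.26 (adjusted p = 0.052) with the photoreceptor markers as a covariate. The WT value passed without P5 cKO replicate 1 (-0.46, adjusted p = 0.042). The other 4 alpha chains did not pass in either genotype.

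Of the 4 other basement membrane genes 1 fell in cKO (25%, beside 26.1% of all genes tested) and none passed in WT. The one that fell was that of agrin (Agrn), a proteoglycan that organises synapses and basement membranes. Agrn was 4930.2, 4893 and 5394 at E15.5 and 3553, 3762 and 3727 at P5 in cKO, a change of -0.46 ± 0.14 (adjusted p = 0.021) that was lost without E15.5 cKO replicate 3 or P5 cKO replicate 3 (adjusted p = 0.073 and 0.053) and with the lens covariate (-0.19 ± 0.20). In WT its log2 change was -0.12 ± 0.14, and the difference between the genotypes was -0.34 ± 0.20 (adjusted p = 1). Hspg2 (perlecan), Nid1 and Nid2 did not pass, at 0.64 ± 0.25, -0.54 ± 0.40 and 0.10 ± 0.41 in WT.

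Among the 10 elastic fibre genes elastin itself did not pass while the fetal fibrillin fell. Eln was 22676, 18743 and 17979 at E15.5 and 27560.1, 26292 and 18242 at P5 in WT, at 0.26 ± 0.23. Fbn2, the fibrillin of fetal microfibrils, was 15573, 13438 and 13782 in WT and 11458, 12390.1 and 17979 in cKO at E15.5 and 5394, 3644 and 2184 in WT and 5248, 1906 and 2149 in cKO at P5. It fell without overlap, at -2.02 ± 0.40 (adjusted p = 0.0027) in WT and -2.30 ± 0.40 (adjusted p = 0.0011) in cKO, and was -0.75 ± 0.26 and -0.95 ± 0.27, still passing, with the photoreceptor covariate. The antisense gene Gm26507 shares 129 bases with its exons. Fbn1, the fibrillin of adult microfibrils, had 0.32 ± 0.41 in WT and 0.82 ± 0.41 in cKO and did not pass. Gm9913, on the opposite strand, shares 2442 bases with the exons of Fbn1, so the level of Fbn1 is uncertain. Per kb of exon, with that limit, the 2 fibrillins stood at 1079 ± 86.8 (Fbn2) and 378 ± 78.7 (Fbn1) at E15.5 in WT and at 283 ± 122 and 539 ± 320.4 at P5.

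Loxl1, the lysyl oxidase of elastin, was 3923, 3792 and 2923 in WT and 3363, 3290.3 and 3679 in cKO at E15.5 and 7901, 6642 and 3696 in WT and 9822, 7077 and 8635 in cKO at P5. In cKO the ages lay apart, at 1.29 ± 0.25 (adjusted p = 0.0021), a call lost with the lens covariate (0.62 ± 0.31). In WT they overlapped and the rise of 0.72 ± 0.25 (adjusted p = 0.042) held in 3 of the 12 fits that each left out 1 library (adjusted p up to 0.15). Lox, which also cross-links collagen, had -0.72 ± 0.36 and -0.93 ± 0.36 and did not pass. Fbln5, a fibulin needed to assemble elastic fibres, was 3254, 2801 and 3268 at E15.5 and 6069.8, 4520.5 and 5802 at P5 in cKO and rose by 0.81 ± 0.24 (adjusted p = 0.019), lost without E15.5 cKO replicate 2, P5 cKO replicate 1 or P5 cKO replicate 3 (adjusted p = 0.066, 0.052 and 0.061) and at 0.04 ± 0.24 with the lens covariate. In WT it had 0.19 ± 0.24, and without P5 WT replicate 3 0.51 (adjusted p = 0.014).

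The fibulin gene Fbln1 was 8286, 7511 and 7536 in WT and 7260.3, 6889 and 9505 in cKO at E15.5 and 3800.4, 3078 and 1737 in WT and 4975, 2116 and 2539 in cKO at P5. It fell in both genotypes, at -1.51 ± 0.33 (adjusted p = 0.005) and -1.38 ± 0.33 (adjusted p = 0.0069), and its values of -0.41 ± 0.19 and -0.22 ± 0.19 with the photoreceptor covariate did not pass. Efemp1 (fibulin 3), the gene mutated in an inherited human disease with deposits under the RPE, was 1867, 1769 and 1648 at E15.5 and 724, 856 and 217 at P5 in WT. It fell there at -1.78 ± 0.43 (adjusted p = 0.0079). Without P5 WT replicate 3 it fell at -1.16 (adjusted p = 0.0018), and with the photoreceptor covariate its value was -0.49 ± 0.34 and did not pass. In cKO its values of 1846, 1715 and 1819 at E15.5 and 1046, 567 and 983 at P5 did not overlap but the change of -1.10 ± 0.43 did not pass (adjusted p = 0.057). Without P5 WT replicate 2 or 3 the same cKO change did pass (adjusted p = 0.04 and 0.001), in fits that pool the spread over all groups. It also passed with the 6 cKO libraries fitted alone (adjusted p = 0.01), with library weights (0.0033) and with a pseudocount of 50 (0.047). With the lens covariate the cKO change was -2.61 ± 0.35 (adjusted p = 0.0015), and with the photoreceptor covariate it was 0.26 ± 0.35 and did not pass.

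**Figure D3:**
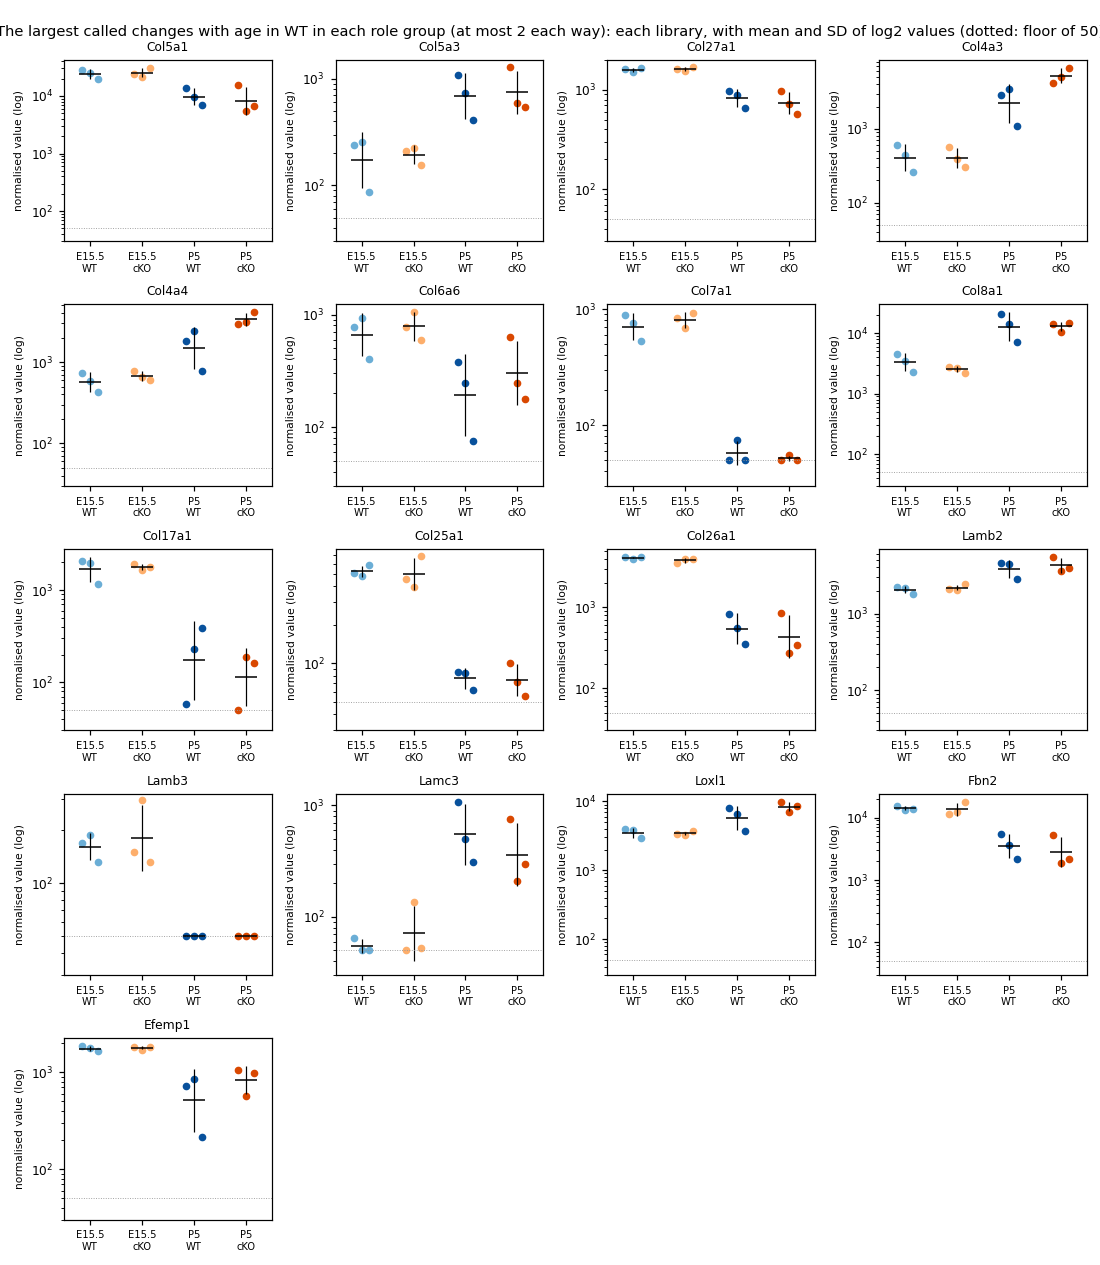
Normalised value (log axis) of every library for 17 genes with the largest called changes in their role group in WT, by age and genotype. Points are libraries, horizontal lines the mean and vertical bars the SD of the log2 values (n = 3), and the dotted line the floor of 50. Col7a1 and Lamb3 lie on or near the floor at P5, and Col4a3, Col4a4 and Lamc3 lie higher in every P5 library than in every E15.5 library of the same genotype.

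Genes that make, bind or organise this matrix were read from 3 lists. Of 24 genes for collagen processing and cross-linking 2 rose (8.33%) and 5 fell (20.8%) with age in WT. In cKO 3 rose (12.5%) and 4 fell (16.7%). Over all genes tested 15% rose and 23.2% fell in WT, and 17.6% and 26.1% in cKO. Pcolce, which speeds removal of the procollagen end piece, rose by 1.44 ± 0.19 in WT and 1.36 ± 0.19 in cKO, and Pcolce2 went from the floor in all E15.5 libraries to 250.1, 146 and 85.6 in WT and 440.3, 289.8 and 398 in cKO. The proline hydroxylase subunit P4ha2 fell in WT at -1.46 ± 0.18, as did the related P3h2 at -1.38 ± 0.45. Of 24 matrix receptors 4 rose (16.7%) and 6 fell (25%) in WT and 4 rose (16.7%) and 4 fell (16.7%) in cKO. The integrin gene Itgb8 was 187, 125 and 134 at E15.5 and 2169, 2494 and 1051 at P5 in WT, a rise of 3.60 ± 0.36 (adjusted p = 5.3e-05), and the largest fall was that of the syndecan gene Sdc1 at -1.82 ± 0.40. Of 18 microfibril partners 5 rose (27.8%) and 4 fell (22.2%) in WT and 7 rose (38.9%) and 5 fell (27.8%) in cKO. Adamtsl4, known for the lens zonule, rose by 2.46 ± 0.37 in WT and 3.14 ± 0.37 in cKO, Mfap5 by 2.14 ± 0.34 and 2.17 ± 0.34, and the fibronectin gene Fn1 fell at -1.91 ± 0.41 and -1.95 ± 0.41. The median log2 change in WT was -0.23, -0.12 and 0.20 over the 3 lists, beside -0.07 over all genes.

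Between the genotypes no matrix gene passed the limma test at either age. At E15.5 none of the 59 genes was called and none had an unadjusted p under 0.05, beside 1 call (0.00739%) and 49 genes (0.362%) of all tested. The log2 difference, libraries labelled cKO minus WT, ran from -0.39 (Col8a1) to 0.38 (Lamc3) with a median of 0.05, beside 0.00 over all genes. At P5 none was called and 5 had an unadjusted p under 0.05, beside 33 calls (0.244%, with 0.2% higher and 0.0444% lower) and 1039 genes (7.68%) of all tested. The P5 differences ran from -0.67 (Lama1) to 1.24 (Col4a3) with a median of -0.13, beside -0.02 over all genes, and 22 were positive and 36 negative. Counts of 0 stood in every fit that left out 1 library. None of the 3 lists of processing genes, receptors and microfibril partners had a call at either age.

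**Figure D4:**
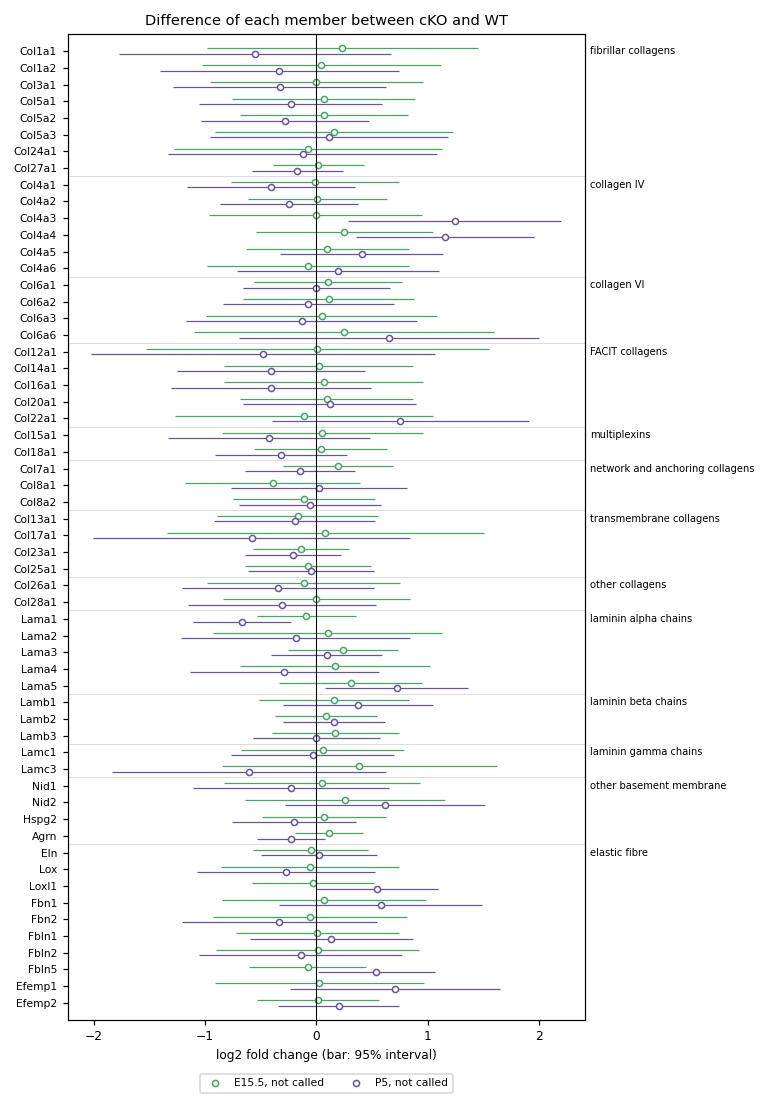
Log2 difference between the libraries labelled cKO and WT (points) with its 95% confidence interval (bars) for 58 of the 59 genes at E15.5 (green) and P5 (purple). No point passed the test after adjustment, and the P5 intervals of Col4a3, Col4a4, Lama5, Lama1 and Fbln5 lie to one side of 0 before it.

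The spread sets how large a difference could have gone unseen. For Col1a2, the second chain of collagen I, the 95% interval of the P5 difference was -1.41 to 0.74, for Col4a1 -1.17 to 0.34, for Eln -0.50 to 0.54 and for Hspg2 -0.76 to 0.36. Agrn had one of the narrower ones at -0.54 to 0.08. A value that missed the threshold is thus no sign that the genotypes were alike.

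At P5 the groups did not overlap for 4 of the 59 genes, 3 higher and 1 lower in the libraries labelled cKO, that is a share close to the 6.18% of all genes tested (3.45% higher and 2.73% lower). The higher ones were Col4a3, Col4a4 and the laminin alpha chain Lama5, the lower one Lama1. Col4a3, at 2824, 3443 and 1097 in WT and 4203, 4994 and 6722 in cKO, differed by 1.24 ± 0.43 (SE, adjusted p = 0.48, exact permutation p = 0.1, the smallest that 3 libraries against 3 can give). Col4a4, at 1819.5, 2406 and 771 in WT and 2959.9, 3067 and 4106 in cKO, differed by 1.15 ± 0.36 (adjusted p = 0.41, exact permutation p = 0.1). In both genes the lowest WT library was replicate 3, and without it the differences were 0.74 ± 0.35 and 0.67 ± 0.24. With library weights they were 0.52 ± 0.53 and 0.41 ± 0.37. At E15.5 they were -0.01 ± 0.43 and 0.25 ± 0.36.

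Lens markers were read beside the collagen IV genes Col4a3 and Col4a4 at P5. The summed lens values were 2479, 6105 and 631 in WT and 8177, 5266 and 10287 in cKO. In WT the libraries stood in the same order for this sum and for both genes. In cKO replicate 1 lay above replicate 2 for the sum and below it for both genes. The lens crystallin gene Cryaa was 1019.7, 2293 and 107 in WT and 3310.5, 2017 and 4118 in cKO. Of the 11 lens markers 10 had a positive difference and none was called, with a median log2 difference of 1.42. With their mean as a covariate, Col4a3 differed by 0.34 ± 0.31 and Col4a4 by 0.33 ± 0.18 between the labels. The lens sums of the 2 genotypes overlapped, and the part of lens RNA in these differences was not tested beyond that fit. With the photoreceptor markers as a covariate instead, Col4a3 differed by 1.27 ± 0.39 and Col4a4 by 1.19 ± 0.31, and neither passed. The other genes of the family had smaller values that did not pass, -0.41 ± 0.34 for Col4a1 and -0.25 ± 0.28 for Col4a2. All 10 endothelial markers also had a negative difference at P5, and none of them was called. Col4a5 and Col4a6 had 0.40 ± 0.33 and 0.19 ± 0.41.

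**Figure D5:**
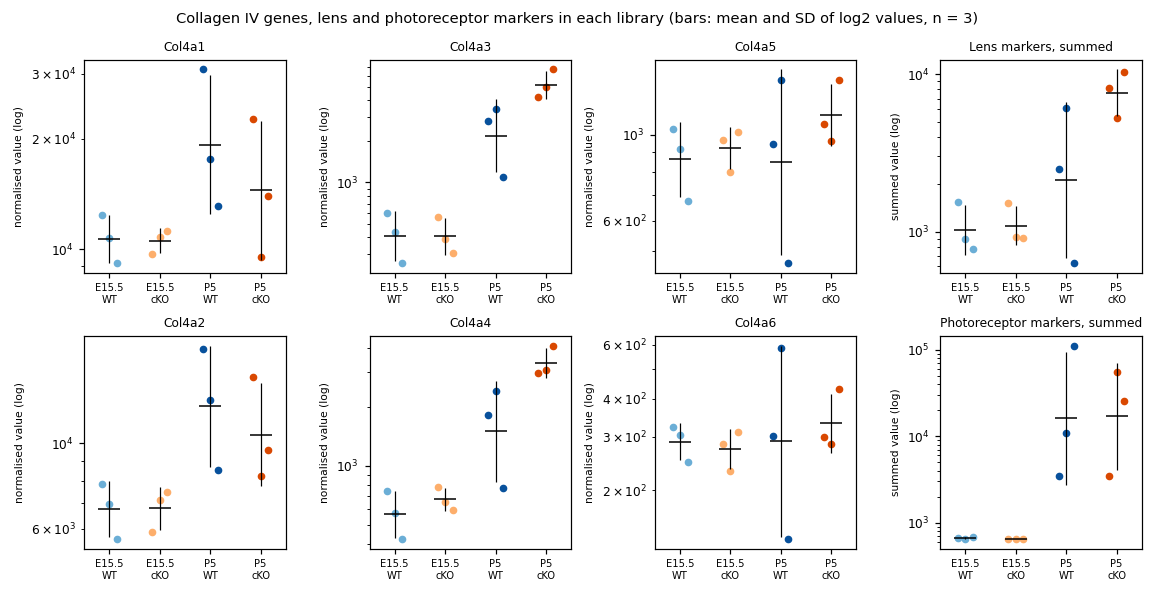
Normalised value (log axis) of the 6 collagen IV genes in every library, one head-to-head gene pair per column, and in the last column the summed lens and photoreceptor markers. Points are libraries, horizontal lines the mean and vertical bars the SD of the log2 values (n = 3). Col4a3 and Col4a4 rise with age and are higher in the 3 P5 libraries labelled cKO than in the 3 of WT, as the lens markers are in 2 of the 3, while P5 WT replicate 3 has the lowest Col4a3 (1097) and the most photoreceptor RNA (111354).

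Lama5, the alpha chain of laminins 511 and 521, was 2156, 2047 and 956 in WT and 2337, 2547 and 3176 in the libraries labelled cKO at P5, with replicate 3 of WT far below the others and a difference of 0.72 ± 0.29 (adjusted p = 0.59). It was also the one gene of the 59 that was higher without overlap at E15.5, at 2247, 2209.9 and 1398 in WT and 2313, 2508 and 2262 in cKO, beside 2.11% of all genes. That difference was 0.31 ± 0.29 (adjusted p = 1), with the highest WT library within 15 units of the lowest cKO library. Without E15.5 WT replicate 3 it was 0.08 ± 0.30. Col26a1 was the one gene lower without overlap at E15.5, at -0.12 ± 0.39, beside 2.99% of all genes (5.1% in either direction).

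Lama1 was 407, 402 and 355 in WT and 326, 222 and 199.5 in the libraries labelled cKO at P5. Each cKO library lay below each WT library, and the difference was -0.67 ± 0.20 (SE, adjusted p = 0.38, exact permutation p = 0.1), the lowest adjusted p among the 59 genes. It ran from -0.88 to -0.52 when single libraries were left out, and was -0.74 ± 0.26 with the lens covariate and -0.65 ± 0.17 with the photoreceptor covariate, none of them passing. At E15.5 the difference was -0.09 ± 0.20, with the libraries overlapping.

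For none of the 59 genes did limma's interaction test call a difference between the genotypes in the change with age. None passed and none had an unadjusted p under 0.05, beside 8 calls (0.0592%) and 358 genes (2.65%) of all tested. The interaction, the change in cKO minus the change in WT, ran from -0.99 ± 0.79 (Lamc3) to 1.25 ± 0.61 (Col4a3), with 21 values above 0 and 38 below.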

How the data were processed

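Polyadenylated RNA of 12 RPE libraries, 3 in each of 4 groups, was sequenced. Per the submitters' processing notes, TopHat2 2.0.10, the mm10 build and HTSeq were used. The deposited signal values are gene counts that the authors brought to 1 distribution by quantile normalisation, as the identical sorted values of all 12 columns show, with a floor of 50. Sequencing depth, strand setting and annotation release are not stated in those notes or the labels.

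Values were analysed as log2(value + 1). The floor of 50 means that fold changes of genes at or near it are understated. Genes above the floor in at least 3 libraries (13523) were fitted with 1 mean per group and a spread shared by all 12 libraries (limma 3.58.1, R 4.3.3). P-values were adjusted by Benjamini-Hochberg over all 13523 genes in each of 5 contrasts. Genes whose adjusted p lay under 0.05 were called. A change under another setting comes from a new fit with that setting altered. The fit was tested on simulated data. Coordinates and exon lengths are from GENCODE M21 (GRCm38), promoter sequences from RefSeq (GRCm38.p6).

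The 59 genes, the marker and companion lists and the tests were chosen with earlier results of these data known. The genes described library by library were those with the largest called change in WT in each role group, at most 2 in each direction, and, between genotypes, those whose libraries did not overlap. Others were named for their role or because they passed in 1 genotype, after their values were seen. The values of 1 of the 59 genes are not reported here, though the counts include it. Alternatives were another pseudocount, no filter or a stricter one, fewer libraries, library weights, a replicate block, lens or photoreceptor markers as a covariate, and each library left out.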

Additional observations from a re-analysis of the deposited data

How the results depend on the processing

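The number of the 59 genes called with age, 20 in each genotype, moved by more than 1.5 times under 3 settings. In WT it was 43 with library weights (23 rose and 20 fell, and all 20 kept their call) and 38 with the photoreceptor covariate (31 rose and 7 fell, 15 kept), and in cKO 39 with that covariate (30 rose and 9 fell, 17 kept). The cause was not tested, and the photoreceptor covariate itself differed between the ages without overlap. Leaving out each of the 12 libraries gave 16 to 27 in WT, 18 to 27 in cKO, and 0 for the genotype at either age and for the interaction. The sign turned with the photoreceptor covariate for Col6a6 in WT (0.069) and cKO (0.58) and for Efemp1 in cKO (0.26), and with the lens covariate for Fbln5 in WT (-0.13). No setting gave a genotype or interaction call among the 59 genes.

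The libraries were not taken as paired by replicate number, since in no contrast was every same-number correlation of deviations over 0.1. These ran from -0.02 to 0.27 between the genotypes at E15.5, from -0.30 to 0.78 at P5, from 0.06 to 0.25 between the ages in WT (all positive) and from -0.34 to 0.05 in cKO. With the replicate number as a block 22 genes were called with age in WT, 23 in cKO, and 0 for the genotype at E15.5, the genotype at P5 and the interaction.

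The floor of 50 hides changes among the lowest genes, and 54 of the 59 genes had a mean of at least 4 times the floor. With 3 libraries against 3 no exact permutation p can go below 0.1. The library weights come from an estimate that stopped before its convergence tolerance.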
